A study of Mus musculus with 12 samples.

Results

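The genes described here encode subunits of the 5 complexes of oxidative phosphorylation. They were chosen by a rule on gene names that holds no measured difference, though with earlier results of these data known. The rule took every mouse gene with a probe on the array and a fitting symbol. Complex I symbols begin with Nduf and a subunit letter, those of complex II are Sdha to Sdhd, and those of complex III begin with Uqcr. Complex IV took subunit genes of the series Cox4 to Cox8, and complex V took symbols that begin with Atp5. Among 17178 genes with a named probe, 82 met this rule, with 35 in complex I, 4 in complex II, 8 in complex III, 18 in complex IV and 17 in complex V. They had 101 probes, and the brightest probe stood for each gene. Of the 82, 79 were well above background on all 12 arrays and were tested together with 14705 genes in all. The other 3, Cox7b2, Cox8b and Cox8c, were well above background on 1, 0 and 1 of the 12 arrays and were not tested. Another 5 protein-coding genes matching the rule had no matched probe here (Ndufa11, Ndufa4l2, Ndufb1, Ndufb4b and Ndufb4c).

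Complexes I and II pass electrons from NADH and succinate to ubiquinone, complex III passes them on to cytochrome c, and complex IV to oxygen. The proton gradient that complexes I, III and IV build drives complex V, the ATP synthase. A few core subunits in each complex carry the redox centres or the catalytic sites, and many small accessory subunits surround them. All members studied here are nuclear genes, and T cells raise both mitochondrial mass and respiration after activation.

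The cells were helper T cells of C57BL/6 mice aged 7 weeks, activated with antibodies against CD3 and CD28 for 65 hours and kept in IL-2 for 48 hours more. They were electroporated on day 1 and day 4 and harvested on day 5, which was 24 hours after the second transfection. Cells deficient in Dgcr8, the partner of Drosha in microRNA processing, received either a control miRNA or miR-29b, and wild-type cells received either control inhibitors or miR-29 inhibitors. There were thus 4 groups of 3 arrays. The mice of each genotype carry the numbers 2, 3 and 4, and each mouse gave an array to both groups of its genotype. The labels do not say how or in which cells Dgcr8 was removed. Since the controls of the genotypes received different oligonucleotides, genotype and kind of control cannot be told apart.

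A level below is the log2 of the scanner software's processed signal minus the 75th percentile of that array, so that 0 is the 75th percentile. Between 27287 and 31405 of 41174 probes were well above background on each array, and no spot (0) was saturated. Dgcr8 itself lay between -1.24 and -0.15 on the 6 Dgcr8-deficient arrays and between -0.16 and 1.0 on the 6 wild-type arrays, a difference between controls of -1.06 ± 0.38 (SE, limma adjusted p = 0.072, and 0.00134 with scan day as a block). Whether its probe lies in the deleted part is not given. A single slide, scanned on a second day with another scanner, held the 4 arrays of mouse 4 of the Dgcr8-deficient genotype and mouse 3 of the wild type. That slide, day and pair of mice cannot be told apart from each other, and they touch several results below. Another slide held only arrays of wild-type mouse 4, and a further one only arrays of Dgcr8-deficient mouse 3. On these slides, slide and genotype cannot be told apart.

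miR-29b is one of 3 miR-29 forms that share a seed, the stretch by which a microRNA pairs with its targets. The labels name no arm; the RefSeq mature 3p forms (GRCm38.p6) are shown with bases 2 to 8 in capitals because this seed is what the transfected miR-29b and the inhibited family have in common. The miR-29b form is made from a gene on chromosome 6 (chr6:31063025-31063047, minus strand) and another on chromosome 1 (chr1:195037091-195037113, plus strand).
miR-29b-3p: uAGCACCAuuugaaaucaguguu
miR-29a-3p: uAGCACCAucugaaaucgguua
miR-29c-3p: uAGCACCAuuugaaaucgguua

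Members fell broadly in Dgcr8-deficient control cells. Against wild-type controls, 36 of the 79 tested members were lower and 0 were higher (limma, adjusted p under 0.05), where 12.7% of all genes tested were lower and 9.27% were higher. The median log2 difference was -0.66 over the members and -0.08 over all genes, and 75 of 79 members were below 0. Restricted to the 12146 genes well above background on all 12 arrays, 1733 genes (14.3%) were lower and the median was -0.09. Among the 2177 genes with a mean level above 3, where most members lie, 377 (17.3%) were lower and the median was -0.19. In these bulk samples, fewer cells of a type and less RNA per cell cannot be told apart.

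The fall was not particular to these complexes. Genes of the mitochondrial ribosome had 40 of 78 members lower and 0 higher, with a median of -0.74, and genes of the cytosolic ribosome had 33 of 84 lower and 0 higher, with a median of -0.65. Both lists were picked by symbol with the earlier results known, and the cytosolic one includes Rps19bp1, which is not a ribosomal protein gene.

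Marker genes of B cells moved with the genotype as well. Of 6 B cell markers, 5 were higher in Dgcr8-deficient controls, with the mean level of the list between -1.23 and -0.80 there and between -4.80 and -4.09 in wild-type controls. Ms4a1 (CD20) differed by 5.86 ± 0.56 and Cd79b by 3.83 ± 0.33, while Pax5 differed by 0.00 ± 0.36. All 12 helper T cell markers were measured, at a mean level between 4.52 and 4.74 in Dgcr8-deficient controls and between 4.61 and 4.82 in wild-type controls. Cd28 was higher and Lck lower, and the other 10 did not pass. Of 6 tested myeloid markers, 1 (Itgax) was higher and 2 were lower, among them Adgre1 (F4/80) at -2.72 ± 0.51, and the mean level of the list was between -5.20 and -4.54 in Dgcr8-deficient controls and between -4.81 and -4.30 in wild-type controls. The part of these other cells in the members' difference was not tested.

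**Figure D1:**
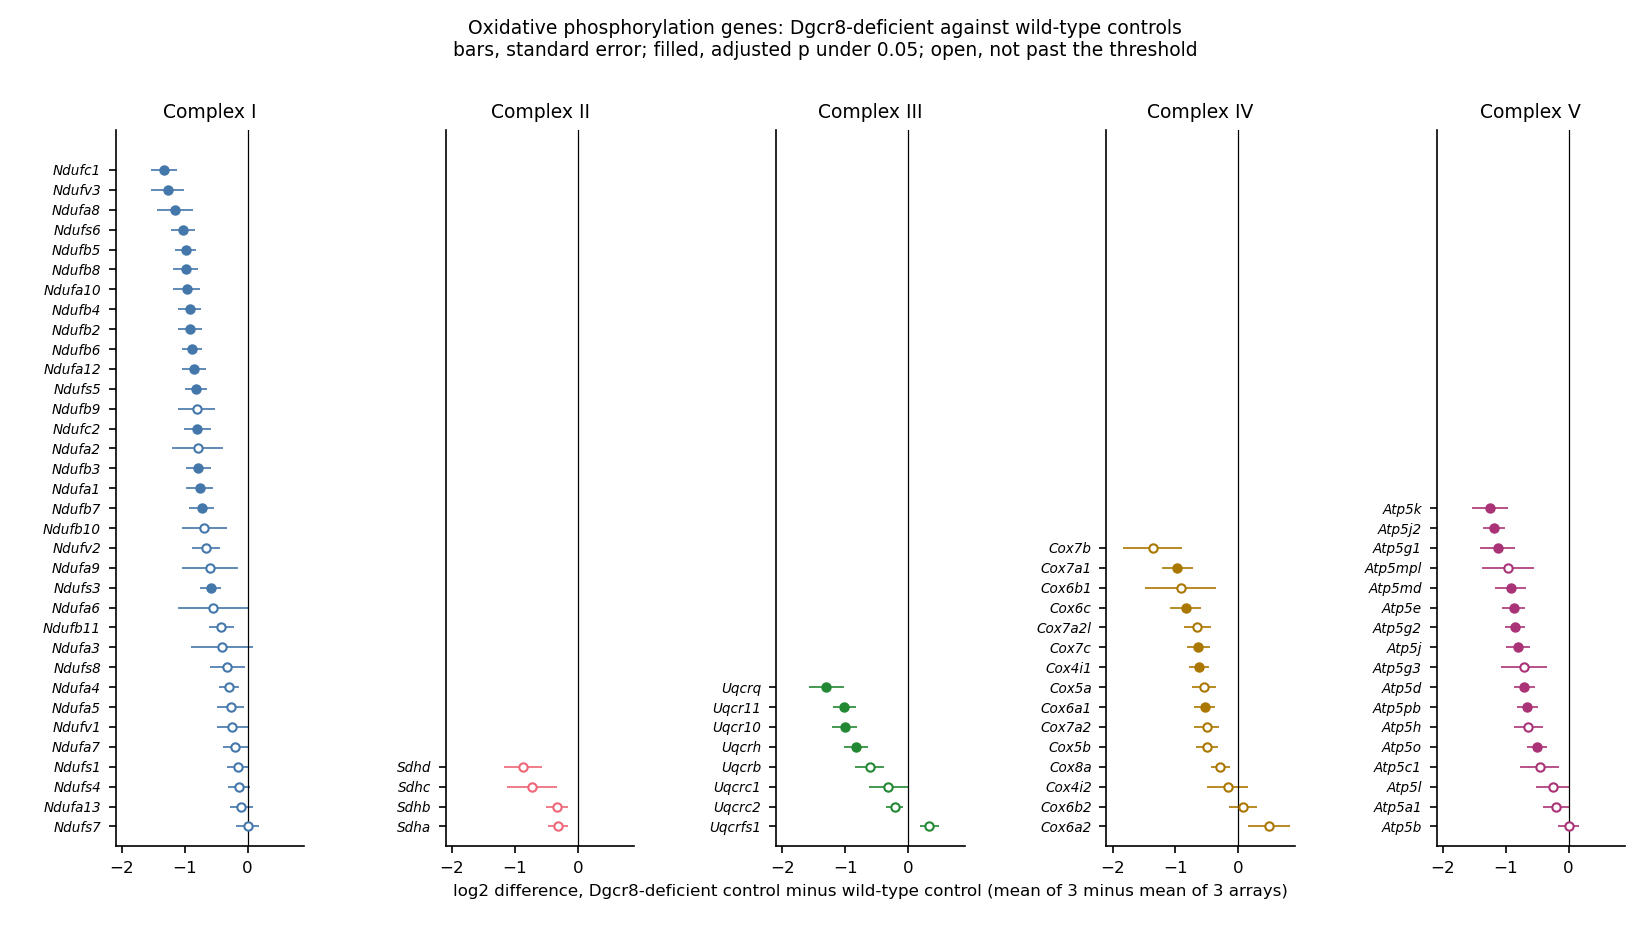
Log2 difference between Dgcr8-deficient and wild-type controls for the tested members (horizontal axis; 3 against 3 arrays), 1 row per gene in a panel per complex (1 complex I member that did not pass is not drawn), with bars for the standard error. Filled points passed an adjusted p of 0.05: 17 in complex I, 0 in complex II, 4 in complex III, 5 in complex IV and 10 in complex V, all to the left of 0.

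Complex I held 17 of the 36 fallen members, out of 35 tested, and all 35 were below 0 (median -0.73). The largest fall past the threshold among all members belonged to Ndufc1, a small accessory subunit of the membrane arm. Its levels were 3.10, 3.07 and 2.64 in Dgcr8-deficient controls of mice 2, 3 and 4 and 4.15, 4.39 and 4.25 in wild-type controls. The groups did not overlap, and the means differed by -1.32 ± 0.21 (2.5-fold lower, limma adjusted p = 0.00129). With miR-29b or inhibitors Ndufc1 stayed on the same sides, at 3.50, 3.05 and 2.78 against 4.31, 4.28 and 4.37.

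Ndufb5, another membrane-arm accessory subunit, was at 0.75, 0.87 and 0.67 in Dgcr8-deficient controls and at 1.82, 1.57 and 1.86 in wild-type controls. It was thus low in every Dgcr8-deficient mouse, with a difference of -0.99 ± 0.16 (limma adjusted p = 0.00179). Ndufs6, a zinc-binding subunit of the matrix arm, was at 3.79, 3.55 and 3.53 against 4.62, 4.86 and 4.46, again without overlap (-1.02 ± 0.19, limma adjusted p = 0.00328). The further falls among the Ndufb subunits of the membrane arm were Ndufb8 (-0.99), Ndufb4 (-0.92), Ndufb2 (-0.92), Ndufb6 (-0.88), Ndufb3 (-0.79) and Ndufb7 (-0.73). In the Ndufa, Ndufc and Ndufs series they were Ndufa8 (-1.15), Ndufa10 (-0.97), Ndufa12 (-0.85), Ndufa1 (-0.76), Ndufc2 (-0.80), Ndufs5 (-0.82) and Ndufs3 (-0.58 ± 0.16), a matrix-arm subunit of the conserved set. Ndufv3 fell by 1.27 on the log2 scale with its brightest probe (limma adjusted p = 0.00585), but its other 2 probes were at 0.17 ± 0.47 and 0.05 ± 0.46, so the probes of this gene disagree. Averaged over its probes it lost its call (-0.35).

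Among the complex I subunits that carry its redox centres, those described here did not pass. Ndufv1, which binds the flavin that accepts electrons from NADH, was at 5.07, 4.92 and 4.69 in Dgcr8-deficient controls and 5.09, 5.07 and 5.23 in wild-type controls. These ranges met, and the difference was -0.24 ± 0.24. The iron-sulfur subunits Ndufs1, Ndufs7 and Ndufs8 were at -0.16, -0.00 and -0.33. Ndufv2, which also holds an iron-sulfur cluster, was at -0.66 ± 0.23, with all 6 Dgcr8-deficient arrays below all 6 wild-type arrays. Ndufa4, named for complex I but since assigned to complex IV, was at -0.30 ± 0.16 and did not pass.

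Complex II, the enzyme shared with the citrate cycle, had 0 of 4 members past the threshold. It had 1 at an unadjusted p under 0.05, beside 4820 of all 14705 genes. Its catalytic flavoprotein Sdha was at 2.21, 2.28 and 2.28 in Dgcr8-deficient controls and at 2.78, 2.44 and 2.50 in wild-type controls. These values did not overlap, yet the difference of -0.32 ± 0.16 did not pass (limma adjusted p = 0.192). The iron-sulfur subunit Sdhb was at -0.32 ± 0.17. The membrane anchors Sdhc and Sdhd were at -0.73 ± 0.40 and -0.87 ± 0.31.

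In complex III, 4 of 8 members fell, and all 4 are small accessory subunits. Uqcrq was at 5.22, 5.34 and 4.61 against 6.09, 6.35 and 6.64 in the wild type. Every Dgcr8-deficient control was below every wild-type one, by -1.30 ± 0.28 on average (2.47-fold lower, limma adjusted p = 0.00727). Uqcr11, Uqcr10 and the hinge protein gene Uqcrh were at -1.01, -1.01 and -0.83, while Uqcrb was at -0.61 ± 0.23 and did not pass.

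Among the conserved subunits of complex III, the 3 members did not pass, while Cyc1, which lies outside the naming rule, was lower (-0.60). Uqcrfs1, the Rieske iron-sulfur protein, was at 4.90, 5.05 and 4.84 in Dgcr8-deficient controls and 4.56, 4.59 and 4.65 in wild-type controls. All 3 Dgcr8-deficient values were the higher ones, but the difference of 0.34 ± 0.15 did not pass (limma adjusted p = 0.154). It passed once scan day entered as a block (adjusted p = 0.0268). The core proteins Uqcrc1 and Uqcrc2 were at -0.31 ± 0.32 and -0.21 ± 0.14, and for Uqcrc2 all 6 Dgcr8-deficient arrays lay below all 6 wild-type arrays.

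In complex IV, the cytochrome c oxidase, 5 of 15 tested members fell: Cox7a1, Cox6c, Cox7c, Cox4i1 and Cox6a1. Cox4i1, the widely expressed form of the largest nuclear subunit, was at 6.35, 6.31 and 6.42 against 6.71, 7.12 and 7.11. The groups were apart, with the smallest gap between Dgcr8-deficient mouse 4 and wild-type mouse 2, and the difference was -0.62 ± 0.15 (limma adjusted p = 0.0157). Cox6c and Cox7c were at -0.84 ± 0.25 and -0.64 ± 0.18. Cox6a1 (-0.54 ± 0.17, limma adjusted p = 0.0485) was the least firm of these calls and kept it in 6 of 24 alternative settings.

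Several complex IV subunits exist in isoforms typical of certain tissues. Cox7a1, the heart and muscle form, was measured well above background on all 12 arrays and was at -0.92, -1.52 and -1.85 in Dgcr8-deficient controls against -0.59, -0.36 and -0.43 (-0.97 ± 0.25, limma adjusted p = 0.0188). The widely expressed Cox7a2 was at -0.51 ± 0.19 and did not pass. Cox6a2, a muscle form, and Cox4i2, a lung form, were dim and differed by 0.49 ± 0.33 and -0.17 ± 0.33, and Cox6b2, a testis form, by 0.07 ± 0.22. Cox5a and Cox5b, which with Cox4i1 are among the best conserved nuclear subunits, were at -0.55 ± 0.19 and -0.50 ± 0.17, and Cox8a was at -0.28 ± 0.15. None of these 3 passed.

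In complex V, the ATP synthase, 10 of 17 members fell. Atp5j2, the f subunit of the membrane part, had the smallest adjusted p of all members. Its levels were 4.79, 4.56 and 4.78 against 5.68, 6.17 and 5.83, and were without overlap (-1.19 ± 0.17, 2.27-fold lower, limma adjusted p = 0.00081). Atp5k, the e subunit, was at 2.91, 3.02 and 3.46 against 3.97, 5.04 and 4.12 (-1.25 ± 0.29, limma adjusted p = 0.0109). Both subunits lie in the membrane part.

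The c-ring of ATP synthase is encoded by 3 genes with the same mature protein. Atp5g1 (-1.13 ± 0.27) and Atp5g2 (-0.85 ± 0.16) fell, and Atp5g3 was at -0.71 ± 0.37 and did not pass. The stalk and F6 genes Atp5pb (-0.65), Atp5o (-0.51) and Atp5j (-0.80), the delta and epsilon subunits Atp5d (-0.70) and Atp5e (-0.87), and the membrane subunit Atp5md (-0.92) fell as well. The call of Atp5o was lost in 16 of 24 alternative settings.

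The other 7 members of complex V did not pass. Atp5b, the beta subunit with the catalytic sites, was at 7.16, 7.38 and 7.11 in Dgcr8-deficient controls and at 7.12, 7.21 and 7.31 in wild-type controls. The values intermingled, and the difference was 0.00 ± 0.16. Atp5a1 (alpha) and Atp5c1 (gamma) were at -0.20 ± 0.21 and -0.46 ± 0.31. The others besides Atp5g3 were Atp5l (-0.25 ± 0.26), Atp5h (-0.64 ± 0.23) and Atp5mpl (-0.97 ± 0.41). Atpif1, the inhibitor of ATP hydrolysis by this enzyme and outside the naming rule, was lower by -1.14 ± 0.17 (limma adjusted p = 0.00109), from levels of 5.15 to 5.43 against 6.28 to 6.58.

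**Figure D2:**
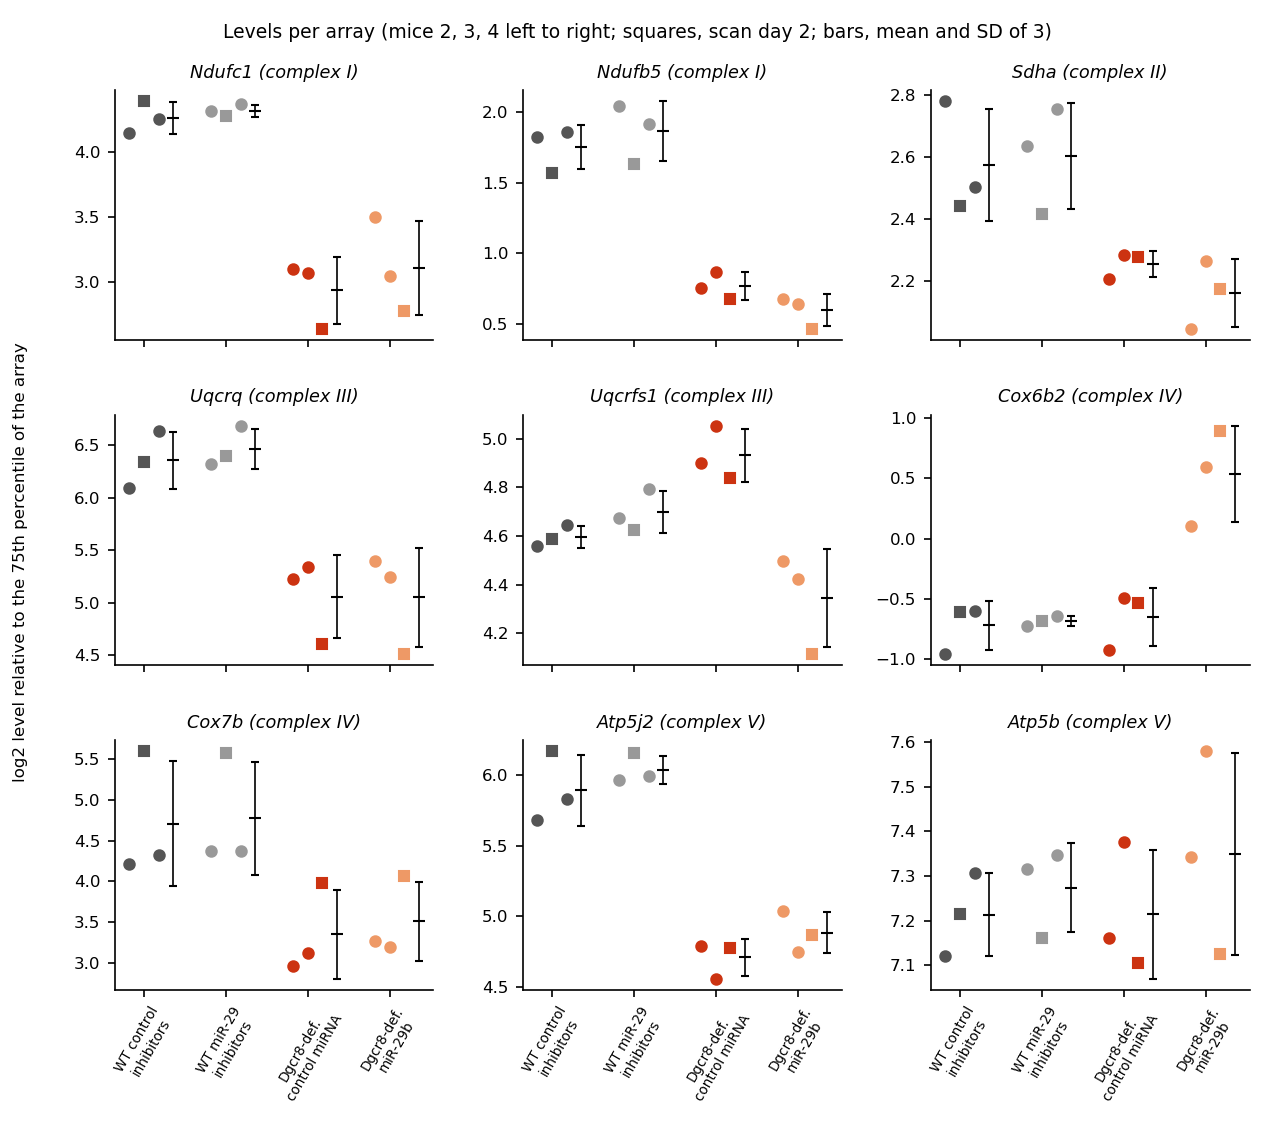
Log2 level above the array's 75th percentile (vertical axis) of 9 members in the 4 groups, 1 point per array for mice 2, 3 and 4 from left to right, with the mean and SD of 3; squares are arrays scanned on the second day. Ndufc1, Ndufb5, Uqcrq and Atp5j2 are low on all 6 Dgcr8-deficient arrays, Atp5b is not, Cox6b2 is high only with miR-29b, and Cox7b is high on the squares of both genotypes.

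Across complexes, 1 of 16 core subunits (Cox4i1, 6.25%) was lower past the threshold, with a median of -0.28 over the 16. Of the 63 other members 35 (55.6%) were, with a median of -0.79, where 12.7% of all genes were lower. The core list held subunits with catalytic, redox or structural roles (5 of complex I, 2 of complex II, 3 each of the others). It left out Ndufs3, which fell, and Ndufv2, conserved subunits of complex I as well. It was written with earlier results of these data known, and the difference between the lists was not tested. A median of -0.28 is itself below that of all genes. With scan day as a block, 4 core subunits (25.0%) were lower (Cox4i1, Cox5a, Cox5b and Atp5c1) and 1 was higher (Uqcrfs1). Of the other 63, 51 (81.0%) were lower, where 24.2% of all genes were lower in that fit.

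The slide scanned on the second day stood apart in many members. In 27 members, its arrays lay beyond all arrays of the first day in both genotypes, above them in 16 members and below them in 11. Of these 27 members, 4 were among the 36 that fell and 23 among the 43 that did not pass. The same count over all genes is not given, so this is not shown to be particular to the members. The part of this slide in which members passed or did not pass was not tested. Cox7b, a small complex IV subunit, is among the 27. Its controls were at 2.96, 3.12 and 3.97 in Dgcr8-deficient mice 2, 3 and 4 and at 4.21, 5.60 and 4.32 in wild-type mice, where 3.97 and 5.60 come from the second day. Its difference of -1.36 ± 0.47 was the largest of all members and did not pass (limma adjusted p = 0.0642), but its standard error was 0.12 once scan day entered as a block (adjusted p = 5.85e-05).

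With that block, 55 members were lower and 1 higher, where 24.2% of all genes were lower, and these included all 36. The lower members then numbered 23 in complex I, 2 in complex II (Sdhc and Sdhd), 5 in complex III, 11 in complex IV and 14 in complex V. With the slide as a block instead, 53 members were lower and 0 higher, beside 26.7% and 16.3% of all genes. Within a slide, the controls of Dgcr8-deficient mouse 2 and wild-type mouse 2 differed by a median of -0.49 over the members and -0.17 over all genes. On the slide scanned on the second day, mouse 4 and wild-type mouse 3 differed by -0.80 over the members and -0.10 over all genes. In both pairs 72 of the 79 members were below 0, all 36 fallen ones among them. These arrays are part of those that gave the 36 calls, so the direction of the 36 here is no further evidence. The same count over all genes is not given.

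Transfection left the genotypes apart. In 43 of 79 members, all 6 Dgcr8-deficient arrays lay below all 6 wild-type arrays, and 0 lay above, against 13.2% of all genes that were below. These 43 were 18 of 35 in complex I, 2 of 4 in complex II, 6 of 8 in complex III, 7 of 15 in complex IV and 10 of 17 in complex V. Relative to the mean of the wild-type controls, the median member was at -0.63, -0.67 and -0.64 in Dgcr8-deficient cells with control miRNA and at -0.50, -0.61 and -0.69 with miR-29b. It was at -0.15, 0.12 and 0.01 in wild-type cells with control inhibitors and at 0.05, 0.04 and 0.07 with miR-29 inhibitors. The median over all genes ranged from -0.20 to 0.20 over the 12 arrays.

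**Figure D3:**
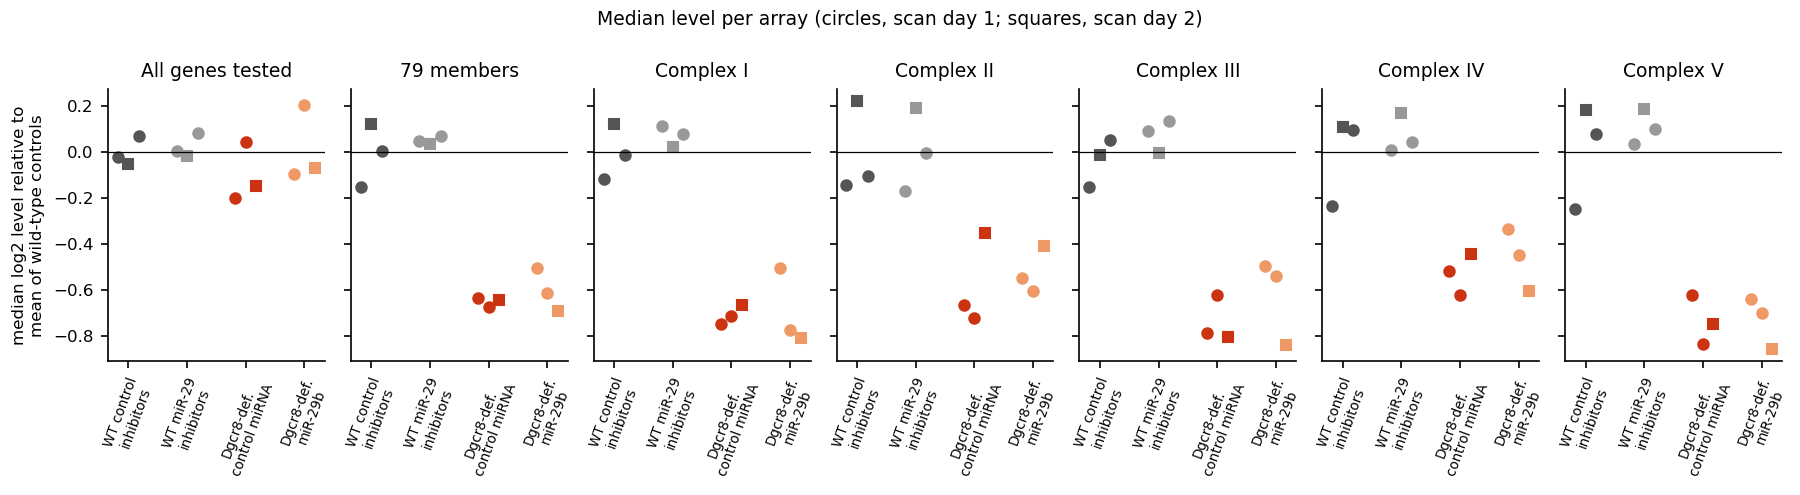
Median log2 level of each array relative to the mean of the 3 wild-type controls (vertical axis), over all genes, over the 79 members and over each complex, for the 4 groups; circles were scanned on day 1 and squares on day 2. The member medians of the 6 Dgcr8-deficient arrays lie between -0.69 and -0.50 and those of the 6 wild-type arrays between -0.15 and 0.12.

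Members varied together across arrays. The median Pearson correlation between 2 members over the 12 arrays was 0.68, against 0.05 for pairs of all 14189 genes with no missing value. Once each group's mean was removed it was 0.26 against 0.09. It was then highest in complex III (0.65 over 8 genes) and lowest in complex II (-0.53 over 4 genes). These values are descriptions, since the arrays share mice, slides and the genotype difference.

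**Figure D4:**
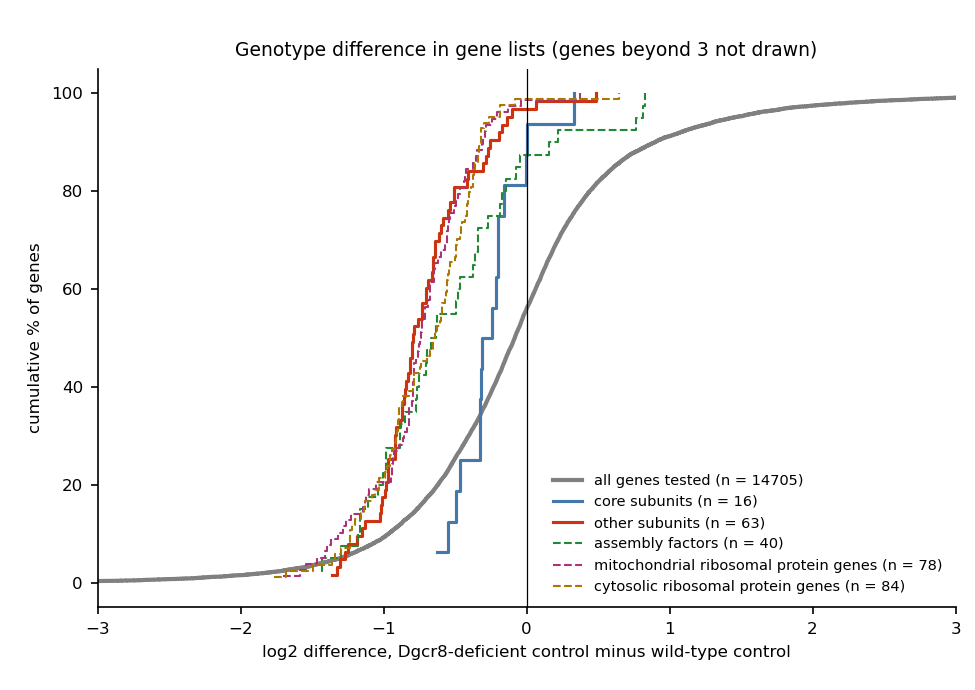
Cumulative percentage of genes (vertical axis) by log2 difference between Dgcr8-deficient and wild-type controls (horizontal axis). Curves are for all 14705 genes, the 16 core subunits, the 63 other members, 40 assembly factors and the ribosomal lists. The ribosomal lists, of mitochondria (78) and cytosol (84), were picked by symbol. The curves of the other members and of both ribosomes lie to the left of all genes, with medians of -0.79, -0.74 and -0.65 against -0.08.

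Promoters of these genes are known for sites of NRF1, of ETS factors such as GABP, and of YY1, which act on many nuclear genes of mitochondria. Windows of 250 bases before to 50 bases after the start were found for 67 of the 82 members (72 windows, RefSeq, GRCm38.p6) and were searched on both strands. The NRF1 core GCGCATGC was in 12.5% of the member windows and 2.71% of all 32851 windows. The ETS core CCGGAAG was in 23.6% against 8.86%, and the YY1 site AAGATGGCG in 9.72% against 1.40%. Matches can share letters: the end of the ETS core can begin the YY1 site, the end of the YY1 site can begin the NRF1 core, and the NRF1 core can overlap its own reverse complement.

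Motifs were found both in members that fell and in members that did not pass. At least 1 of the 3 motifs was in 15 of the 33 fallen members with a window and in 12 of the other 34. The NRF1 core was in 5 and 4, the ETS core in 10 and 7, and the YY1 site in 4 and 3. Nrf1, Gabpa and Yy1 themselves differed between the controls by -0.06 ± 0.48, 0.18 ± 0.28 and -0.00 ± 0.40, and none passed. A match of letters is a description and shows no binding.

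The 110 bases before the start are printed for 5 members that fell and for Sdhb, which did not pass, because they show motifs close to the start. The ETS and YY1 motifs are shown on fallen members, and the NRF1 core on those and on Sdhb. Motif letters are in capitals, and a motif on the other strand appears as its reverse complement. The windows are chr5:108434400-108434509 (Atp5k, minus strand), chr15:102671048-102671157 (Atp5g2, minus), chr16:84834977-84835086 (Atp5j, minus), chr2:36049339-36049448 (Ndufa8, minus), chr4:116075071-116075180 (Uqcrh, minus) and chr4:140961161-140961270 (Sdhb, plus). The capitals mark NRF1 cores on both strands in Atp5k and Atp5g2, the YY1 site and then the ETS core in Atp5j, the NRF1 core in Ndufa8 and Sdhb, and the ETS core in Uqcrh.
Atp5k: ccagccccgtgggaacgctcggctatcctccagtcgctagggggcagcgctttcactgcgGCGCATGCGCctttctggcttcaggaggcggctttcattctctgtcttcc
Atp5g2: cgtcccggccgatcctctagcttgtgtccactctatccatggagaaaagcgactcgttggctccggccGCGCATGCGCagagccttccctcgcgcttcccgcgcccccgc
Atp5j: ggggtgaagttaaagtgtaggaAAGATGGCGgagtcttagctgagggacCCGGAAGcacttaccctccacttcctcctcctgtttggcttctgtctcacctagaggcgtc
Ndufa8: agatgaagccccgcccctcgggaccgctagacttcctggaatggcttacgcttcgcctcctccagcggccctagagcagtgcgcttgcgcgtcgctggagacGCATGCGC
Uqcrh: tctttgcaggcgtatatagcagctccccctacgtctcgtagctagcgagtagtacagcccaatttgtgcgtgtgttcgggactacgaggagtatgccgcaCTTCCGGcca
Sdhb: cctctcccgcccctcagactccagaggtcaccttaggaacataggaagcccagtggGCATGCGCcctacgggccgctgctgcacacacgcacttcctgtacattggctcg

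With miR-29b in Dgcr8-deficient cells, few members and few of all genes passed in the fit without a block. Of the 79, 1 (1.27%) was higher and 0 were lower (limma). Of all genes, 1.01% were higher and 1.19% lower, or 2.2% in either direction. More of both passed with the mouse as a block, as given below. The median change was 0.07 over the members and 0.10 over all genes. By mouse, the member medians were 0.17, 0.06 and -0.05 in mice 2, 3 and 4, so that they differed in sign.

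The gene that rose was Cox6b2, the testis form of a complex IV subunit that faces the intermembrane space. It was at -0.93, -0.49 and -0.53 with control miRNA and at 0.11, 0.60 and 0.89 with miR-29b. Every mouse rose, by 1.03, 1.09 and 1.42, for a mean change of 1.18 ± 0.22 (2.27-fold, limma adjusted p = 0.024). Wild-type levels were between -0.95 and -0.60 on all 6 arrays, close to the Dgcr8-deficient controls. The call was lost in 8 of 25 alternative settings (limma adjusted p up to 0.265), while the change stayed between 1.0 and 1.40. Among these 8 were the fits without any 1 of the Dgcr8-deficient control arrays and without the miR-29b array of mouse 3 or 4. Its widely expressed counterpart Cox6b1 was at 0.20 ± 0.56.

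Both arrays of a mouse deviated together, with residual correlations over all genes of 0.65, 0.61 and 0.75 in the Dgcr8-deficient mice. With the mouse as a block, 5 members were higher (13.1% of all genes) and 7 lower (9.44%). The 5 were Cox6b2 (blocked adjusted p = 0.00376), Cox7a1 (0.62 ± 0.25 without the block), Ndufs3 (0.53 ± 0.16), Cox7a2l (0.41 ± 0.22), a factor that joins complexes into supercomplexes, and Atp5md (0.40 ± 0.24). These are 6.33% and 8.86% of the members, both below the shares of all genes in the same fit.

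The 7 lower members with the block included Uqcrfs1, the Rieske protein. It was at 4.90, 5.05 and 4.84 with control miRNA and at 4.50, 4.42 and 4.12 with miR-29b. All 3 mice were lower, by -0.41, -0.63 and -0.73, for a mean change of -0.59 ± 0.15 (limma adjusted p = 0.0831, blocked 0.0101). All 3 levels with miR-29b lay below the wild-type range of 4.56 to 4.79.

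Ndufb9, a membrane-arm subunit of complex I, went from 5.14, 5.15 and 4.47 to 4.13, 4.55 and 3.57 (-0.84 ± 0.29, limma adjusted p = 0.197, blocked 0.00758). Ndufs4, a matrix-arm subunit, went from 4.01, 3.85 and 3.55 to 3.54, 3.28 and 3.05 (-0.51 ± 0.18, adjusted p = 0.21, blocked 0.0155). Each of the 3 mice was lower for both genes, although the groups overlapped for Ndufb9. The others lower with the block were the ATP synthase genes Atp5g3 (-0.65), Atp5k (-0.50), Atp5c1 (-0.44) and Atp5o (-0.31).

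**Figure D5:**
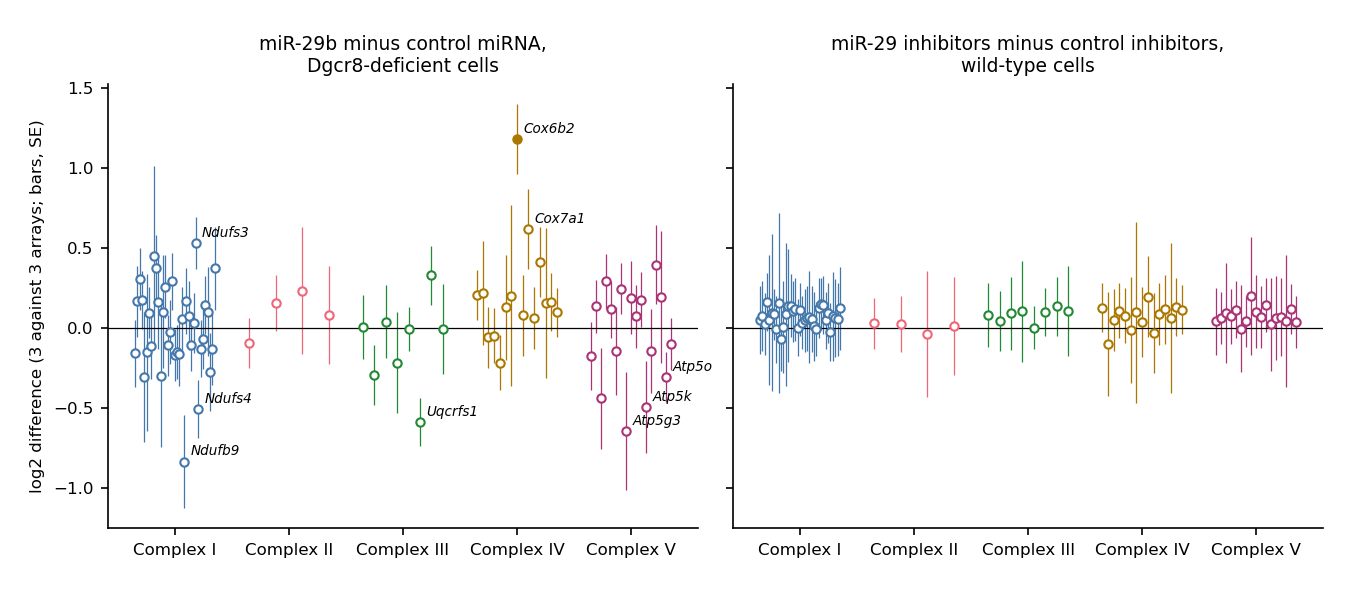
Log2 difference (vertical axis) of each of the 79 tested members, grouped by complex, for miR-29b against control miRNA in Dgcr8-deficient cells (left) and miR-29 inhibitors against control inhibitors in wild-type cells (right); bars are standard errors and filled points passed an adjusted p of 0.05. Cox6b2 at 1.18 is the only filled point; all points on the right lie between -0.10 and 0.20.

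With miR-29 inhibitors in wild-type cells, 0 of 79 members passed, where 0% of all genes did (limma, 0 of 14705). At an unadjusted p under 0.05 there were 0 members and 61 genes. Member changes ran from -0.10 to 0.20, with a median of 0.07 over the members and 0.02 over all genes. Of the 79, 70 were above 0, beside 8059 of all 14705 genes, but this count changed with the arrays used and the scaling. By mouse, the member median was 0.22 in mouse 2, -0.04 in mouse 3 and 0.04 in mouse 4. Without the control array of mouse 2, 34 were above 0 and the median was -0.01, and with quantile normalization 46 were above 0 (median 0.01). The count was 55 without the control array of mouse 4, 53 without the inhibitor array of mouse 3 and 77 with scan day 1 only. The Rieske gene Uqcrfs1 was at 4.56, 4.59 and 4.65 with control inhibitors and at 4.67, 4.63 and 4.79 with miR-29 inhibitors. Its change of 0.10 ± 0.15 was upward in all 3 mice and did not pass (limma adjusted p = 1). Cox6b2 changed by 0.04 ± 0.22.

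The miR-29b effect minus the inhibitor effect was past the threshold for 0 members (0.163% of all genes). At an unadjusted p under 0.05 there were 4 of 79 members, beside 1048 of all 14705 genes. The 4 were Cox6b2 (1.15 ± 0.31, limma adjusted p = 0.245), Uqcrfs1 (-0.69 ± 0.21, 0.342), Ndufs4 (-0.65 ± 0.26, 0.554) and Ndufb9 (-0.91 ± 0.41, 0.7). With the mouse as a block these 4 and Atp5g3 passed, 5 members where 6.15% of all genes did. Both effects come from different cells and oligonucleotides, and the median difference was -0.02.

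Factors that build the complexes differed between genotypes as well. Of 47 listed assembly factors 40 were tested, with 20 (50%) lower and 3 (7.5%) higher in Dgcr8-deficient controls, beside 12.7% and 9.27% of all genes, and a median of -0.65. The lower ones included the complex I factors Ndufaf5 (-1.44) and Nubpl (-1.30), which inserts iron-sulfur clusters, Sdhaf1 of complex II (-1.43), Bcs1l (-0.98), which places the Rieske protein into complex III, and the copper chaperone Cox17 (-1.16). The 3 higher ones were the ATP synthase factor Atpaf1 (0.81) and the complex IV copper factors Sco1 (0.77) and Cox11 (0.83).

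With miR-29b, 2 of the 40 assembly factors fell and 0 rose, where 1.19% of all genes fell and 1.01% rose. Cox11 went from 2.37, 2.54 and 1.95 to 1.19, 1.48 and 0.83 in mice 2, 3 and 4 (-1.12 ± 0.24, limma adjusted p = 0.0421), beside a wild-type control range of 1.23 to 1.60. Foxred1, a complex I factor, went from 1.42, 1.28 and 1.36 to 0.51, 0.67 and 0.54 (-0.78 ± 0.17, adjusted p = 0.0441). For both genes the groups did not overlap. The calls were lost in 13 and 16 of 25 alternative settings. Blocked by mouse, 7 assembly factors (17.5%) were higher and 5 (12.5%) lower, near the 13.1% and 9.44% of all genes.

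Of 29 listed carriers and other subunits of the system, 16 were tested, and 4 (25.0%) were lower and 0 higher between controls, beside 12.7% and 9.27% of all genes. Slc25a4, an exchanger of ADP for ATP across the inner membrane, was at 4.63, 4.58 and 4.58 in Dgcr8-deficient controls against 5.75, 6.06 and 5.81 (-1.28 ± 0.15, limma adjusted p = 0.000265). It fell further with miR-29b, to 3.85, 3.93 and 3.63 (-0.79 ± 0.15, adjusted p = 0.0271), and without overlap of any of the groups concerned. That call was lost in 10 of 25 alternative settings (adjusted p up to 0.286). The other 3 were the outer-membrane channel Vdac3 (-0.86), the phosphate carrier Slc25a3 (-0.52) and Cyc1, the cytochrome of complex III (-0.60). The call of Slc25a3 was lost in 16 of 24 settings and that of Cyc1 in 15. Blocked by mouse, 1 of the 16 was higher and 3 lower with miR-29b (6.25% and 18.8%, beside 13.1% and 9.44% of all genes).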

How the data were processed

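The deposited scanner files gave spot intensity, extracted with Agilent Feature Extraction 10.5.1.1 per the file headers, which removes background and leaves arrays unscaled. A log2 value per probe, deposited by the authors, served as an alternative; the submitters' processing notes name limma, with no version or steps.

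Intensity was converted to log2 and the array's 75th percentile was subtracted. Spots marked as outliers were left out and spots of a probe averaged. Probes well above background on at least 3 of 12 arrays were kept, and named through RefSeq or Ensembl accessions (GRCm38.p6), giving 14705 genes by their brightest probe. Other probes of the tested members numbered 19, and 16 had the sign of the chosen probe between controls; the exceptions were both further probes of Ndufv3 and 1 of Atp5b, a gene at 0.00.

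limma 3.58.1 in R 4.3.3 (with the package data.table, version 1.17.8) was fitted to 12 arrays in 4 groups, with Benjamini-Hochberg adjustment over all genes at 0.05. P-values measure the spread between mice, and both arrays of a mouse entered as if independent. On simulated data with these 4 groups (14189 genes, miR-29b comparison), 24% of changes of size 1 (log2) and 74% of size 2 were recovered. The simulated arrays had independent noise, without the shared part of a mouse, slide or scan day that the real arrays can have. The number of arrays limits precision. Text values are fits unless given per array; summaries and plots were made in Python 3.11.15 with pandas 2.3.3, numpy 2.4.6 and matplotlib 3.10.9.

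Mouse numbers pair arrays within a genotype, since both came from one mouse per the labels. Residual correlations were 0.652, 0.613 and 0.753 (Dgcr8-deficient) and 0.468, 0.722 and 0.430 (wild type). Alternatives were other scaling and background correction (normexp with an offset of 50, on median instead of mean spot signals), filters, probe averaging, blocks, fewer arrays and each array left out. Keeping outlier spots, leaving out mouse 3 and using only the first scan day were chosen after seeing the data.

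Members and lists were chosen with earlier results of these data known. Named members are those past the threshold, up to 3 with the smallest p per complex and comparison, core subunits, tissue isoforms, Ndufa4 and members not above background; of other lists, those past the threshold and up to 3 with the smallest p. Ndufa4l2 was taken out of the carrier list, since it matches the members' rule. Single values of a few genes in these lists are not reported here, though counts and medians include them.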

Additional observations from a re-analysis of the deposited data

Results flagged for a closer look

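Fh1, the fumarate hydratase of the citrate cycle, is listed because 2 effects differed by a test of the difference itself: the effect of miR-29b in Dgcr8-deficient cells minus that of inhibitors in wild-type cells was -1.71 ± 0.21 (limma adjusted p = 0.0255, range 0.00225 to 0.168 over the alternatives that gave a value). These are different treatments of different cells. Its levels fell from 3.48, 3.38 and 3.60 to 1.84, 1.88 and 1.74 with miR-29b in Dgcr8-deficient mice 2, 3 and 4 (-1.67 ± 0.15, adjusted p = 0.0025). In wild-type mice they went from 3.87, 4.20 and 3.92 to 4.03, 4.07 and 4.03 with inhibitors (0.04 ± 0.15, adjusted p = 1). The difference kept its direction in all 24 alternatives and its call in 13. No member of the 5 complexes met this rule without a block, and groups of 3 arrays are too small for the check of single arrays used here.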

How the results depend on the processing

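Between controls, the members past the threshold numbered 25, all lower, with only the 6 control arrays, which hold 1 array per mouse. In that fit 2413 of all 14705 genes passed. With scan day as a block, 56 members and 5848 genes passed. Over fits without 1 array, members ranged from 23 (without wild-type control 4, where 2332 genes passed) to 37 (3401 genes). The member median was -0.52 with quantile normalization (27 lower, 1 higher) and ranged from -0.76 to -0.57 without 1 array. Of the 36 fallen members, 19 kept the call in all 24 alternatives, 17 lost it in at least 1, and none turned in sign. For miR-29b, members past the threshold numbered 2 with quantile normalization (447 of all 14705 genes) and with the authors' log2 table (571 genes). They numbered 12 with the replicate block by mouse (3321 genes), 8 with the slide block (2706 genes) and 6 with the scan day block (1931 genes). There were 0 with only the 6 arrays compared, without both arrays of Dgcr8-deficient mouse 3 and with scan day 1 only. Without 1 array the members ranged from 0 to 1 and the median from -0.03 to 0.08. For the inhibitors every fit gave 0 members, and the median ranged from -0.01 to 0.13 without 1 array. For the difference of effects the replicate block gave 5 members, the slide block 3 and the scan day block 1, beside 904, 588 and 344 of all genes. Without 1 array the members ranged from 0 to 0 and the median from -0.11 to 0.08. Blocking by mouse could not be fitted to the genotype comparison, since each mouse has 1 genotype. The causes of these shifts were not tested. Signal over background limits Cox7b2, Cox8b and Cox8c, which have no measured difference.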

Other observations

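Genes that feed the chain with electrons also differed between controls. Of 21 genes of the citrate cycle and pyruvate oxidation, 8 (38.1%) were lower and 1 (4.76%) was higher in Dgcr8-deficient controls (limma), beside 12.7% and 9.27% of all genes, with a median of -0.43. Pdha1, a subunit of pyruvate dehydrogenase, was at 2.05, 2.15 and 2.21 against 3.37, 3.53 and 3.42 (-1.30 ± 0.17, limma adjusted p = 0.000455), with no overlap. The mitochondrial pyruvate carrier genes Mpc1 and Mpc2 were at -1.25 and -0.87, and the malic enzyme gene Me2 at -1.26. Idh2, the NADP-dependent isocitrate dehydrogenase of mitochondria, was the one that rose (1.29 ± 0.24, limma adjusted p = 0.00321), while Idh3b of the NAD-dependent enzyme was lower (-0.48). The call of Idh3b was lost in 16 of 24 alternative settings.

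Of 19 tested regulators of mitochondrial biogenesis, 2 (11%) were higher and 3 (15.8%) lower between controls, shares near the 9.27% and 12.7% of all genes. The coactivator gene Ppargc1b was at 1.1, 0.77 and 0.94 in Dgcr8-deficient controls and at -0.17, -0.08 and -0.59 in wild-type controls (1.21 ± 0.20, limma adjusted p = 0.00195). Its partner Esrra was at 2.84, 2.96 and 2.75 against 1.66, 1.79 and 1.83 (1.09 ± 0.17, adjusted p = 0.00136). Both were thus higher in every Dgcr8-deficient control, where 36 of the 79 subunit genes were lower. Tfam, the main factor of mitochondrial DNA transcription and packaging, was lower (-0.66 ± 0.16), as were the mitochondrial DNA polymerase gene Polg (-0.46) and the single-strand binding gene Ssbp1 (-0.68). The calls of Tfam, Polg and Ssbp1 were lost in 5, 10 and 12 of 24 alternative settings. No regulator passed with miR-29b (0 of 19). At an unadjusted p under 0.05 there were 3, beside 2118 of all 14705 genes. Blocked by mouse, 2 were higher and 1 lower, or 11% and 5.26%, beside 13.1% and 9.44% of all genes.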
